A study of Mus musculus with 2 samples.

Results

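Integrins and tetraspanins are the adhesion receptors and the small 4-pass membrane proteins that organize them at the macrophage surface. The set was taken by symbol: every gene listed in either library whose symbol begins with Itga, Itgb or with Tspan and a digit, leaving out the Itgb1bp and Itgb3bp genes, together with Cd9, Cd37, Cd53, Cd63, Cd81, Cd82 and Cd151. This gave 48 of the 15623 genes listed, made up of 17 integrin alpha chains, 7 integrin beta chains and 24 tetraspanins. Of these, 45 were listed in both libraries. A further 7 symbols that fit the rule (Itgad, Itgb2l, Itgb6, Itgbl1, Tspan1, Tspan11 and Tspan12) were listed in neither.

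The cells were macrophages from the peritoneal cavity of wild type C57BL/6 mice that had been given 4% thioglycolate 4 to 5 days earlier. They were left to adhere for 4 h, washed, and starved in medium with 0.5% FBS, and then were nontreated (NT) or received mouse IL-4 for 6 h. RNA sequencing gave 1 library for each condition, so the spread between replicates is unknown, and each difference is one between libraries rather than between conditions. Whether a library came from 1 mouse or from several was not given in the sources used here, and the labels name peritoneal macrophages as the source but bone marrow as the tissue.

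An integrin is a pair of 1 alpha and 1 beta chain that spans the membrane, binds matrix or a ligand on another cell, and is linked to actin inside the cell by talin and kindlin. The pairing sets the ligand. Alpha chains that pair with beta2 are the leukocyte integrins for ICAMs and complement, alpha4 and alpha5 with beta1 bind VCAM-1 and fibronectin, and alphav pairs bind vitronectin and other ligands with an RGD motif, latent TGF-beta among them. Tetraspanins have few ligands of their own and gather integrins, proteases and immune receptors into membrane microdomains. Tspan5, Tspan10, Tspan14, Tspan15, Tspan17 and Tspan33 form the TspanC8 group, which carries the protease ADAM10 out of the endoplasmic reticulum.

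The NT library held 11035641 expected counts and the IL-4 library 11250099. The floor, the abundance that a count of 0 still allows, was set at 3 counts. This stood for 0.272 and 0.267 CPM (counts scaled to a common total). Log2 ratios set IL-4 over NT and were taken from expected counts scaled to these totals, with 0.5 count added in each library. Each ratio is followed in brackets by the bounds of its exact 95% interval, which covers counting error only and treats each read as an independent molecule, although PCR copies could not be recognized. A gene was called higher or lower where its log2 ratio reached 0.75 in either direction and the interval did not include 0. All 7 macrophage markers looked for were listed (185100 and 192090 counts in all), with Csf1r called higher and Cd14 called lower. Markers of T cells (17 and 14 counts), B cells (106 and 96), neutrophils (35 and 21), eosinophils (53 and 28), mast cells (60 and 37), dendritic cells (27 and 31) and NK cells (5 and 0) were few. Mesothelial and fibroblast markers reached 1436 and 1090 counts. Platelet or megakaryocyte markers reached 139 and 135 counts, of which Pf4 had 133 and 135. Outside the macrophage markers, the eosinophil marker Siglecf (53 and 27 counts), the mesothelial marker Msln (12 and 2) and the platelet marker Gp1ba (6 and 0) were called lower.

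By these criteria 4 of the 48 members were called higher upon IL-4 stimulation, namely Itgax, Itgb3, Itgb8 and Cd151, and 2 were called lower, Itga10 and Tspan18. The share called higher was 8.33% of the members against 4.07% of the 15593 genes compared, and the share called lower was 4.17% against 6.27%. These are small counts, and with 1 library a group nothing particular to the set can be read from them. For 12 members the counting interval lay above 0 (25% against 17.9% of all genes), for 11 it lay below (22.9% against 20.4%), and for 25 it included 0. The median log2 ratio was 0.07 over the members and −0.03 over all genes.

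**Figure D1:**
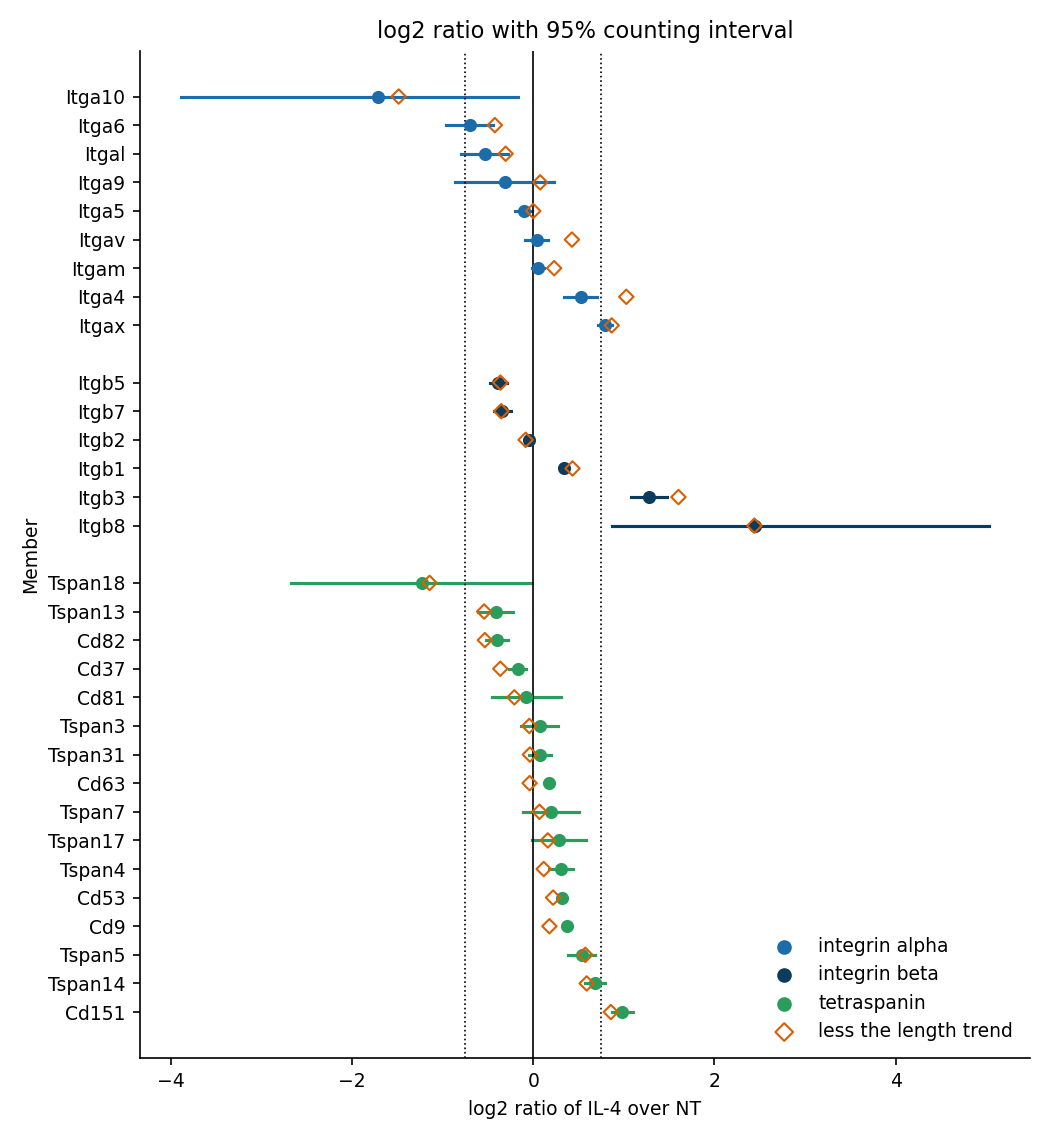
Log2 ratio, IL-4 over NT (horizontal axis), of each member that was called or had 50 or more expected counts in either library, with lines for the 95% counting interval and dotted lines at 0.75 in size. Open diamonds are the same ratio less the median ratio of genes of like transcript length, and Itgb3 moves from 1.27 to 1.60 and Itga4 from 0.52 to 1.03.

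Most of the integrin mRNA was that of the leukocyte beta2 family. Itgb2, which encodes the beta2 chain CD18, had 25760 expected counts in NT and 25454 in IL-4, or 811 and 786 FPKM (fragments scaled to transcript length and depth), and took 73.7% and 71.7% of the summed FPKM of all beta chains. Its log2 ratio was −0.05 [−0.07, −0.02], so that the chain shared by the whole family was at nearly the same level in both libraries.

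The alpha chains that pair with it had different ratios. Itgax encodes CD11c, a complement receptor and a marker of dendritic cells and of some tissue macrophages. It rose from 2003 to 3527 expected counts (44.7 to 77.2 FPKM), a 1.73-fold difference with a log2 ratio of 0.79 [0.71, 0.87]. Itgam, which encodes CD11b of the Mac-1 complement receptor, had 3550 and 3751 counts (68.0 and 70.5 FPKM), with a log2 ratio of 0.05 [−0.01, 0.12]. Itgal, which encodes CD11a of the ICAM receptor LFA-1, had 312 and 219 counts (5.35 and 3.68 FPKM), with a log2 ratio of −0.54 [−0.79, −0.28]. This was below the level in NT by more than counting error but inside the limit of 0.75.

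The alpha chains open to beta2 were thus composed differently in the libraries. Their FPKM summed to 118 in NT and 151 in IL-4, of which Itgax made up 37.9% and 51.0%, Itgam 57.6% and 46.6%, and Itgal 4.53% and 2.43%. In reads, Itgax was 36.1% [34.8, 37.3] of Itgax and Itgam together in NT and 48.5% [47.3, 49.6] in IL-4. The order of the levels reversed as well, since Itgam exceeded Itgax in NT on the FPKM scale and Itgax exceeded Itgam in IL-4. The summed counts of 4 dendritic cell markers were 27 and 31, and their part in the Itgax result was not tested. In bulk RNA, fewer cells of a type and less RNA in each cell cannot be told apart.

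The 3 genes lie on mouse chromosome 7 (GRCm38). Itgal is at chr7:127296139-127335137, Itgam at chr7:128062640-128118491 and Itgax at chr7:128129526-128150657, with 11035 bases between the last 2.

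Among the alphav partners, the ratios of beta3 and beta5 had opposite signs. Itgb3, at chr11:104608000-104670476, encodes the beta3 chain of the vitronectin receptor, which in platelets pairs instead with the alphaIIb chain. It rose from 291 to 717 expected counts (4.49 to 10.9 FPKM), a 2.41-fold difference with a log2 ratio of 1.27 [1.07, 1.47], the largest of the members with 50 or more counts in either library. The platelet gene Pf4 had 133 and 135 counts, Itga2b, which encodes alphaIIb, had 5 and 3, and the platelet genes Gp9, Ppbp and Gp1bb were listed in neither library. The platelet gene Gp1ba had 6 counts in NT and 0 in IL-4 and was called lower.

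Itgb5, which encodes the other common partner of alphav in macrophages, had 2178 and 1699 counts (59.3 and 45.4 FPKM). Its log2 ratio of −0.39 [−0.48, −0.29] was outside counting error and inside the limit. Itgb5 remained the more abundant of the pair on the FPKM scale, but Itgb3 went from 11.8% [10.5, 13.1] to 29.7% [27.9, 31.5] of the reads of the pair. Read shares are not scaled to transcript length, and the Itgb3 transcript is the longer (5795 against 3304 bases). The listed beta chains that pair with alphav are Itgb1, Itgb3, Itgb5 and Itgb8. Of their summed FPKM, Itgb3 took 2.02% in NT and 4.22% in IL-4, and Itgb1 took 71.3% and 78.0%. Itgav itself, at 955 and 998 counts (12.1 and 12.4 FPKM), had a ratio of 0.04 [−0.09, 0.17], which was 0.43 [0.30, 0.56] less the median ratio of genes of like length.

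Itgb8 encodes a beta chain that pairs with alphav and takes part in the release of active TGF-beta. It was called higher on 3 counts in NT and 19 in IL-4 (0.09 and 0.54 FPKM), and its log2 ratio of 2.45 had a wide interval [0.87, 5.03]. The call rests on these few reads, and the level in IL-4 was below 1 FPKM.

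**Figure D2:**
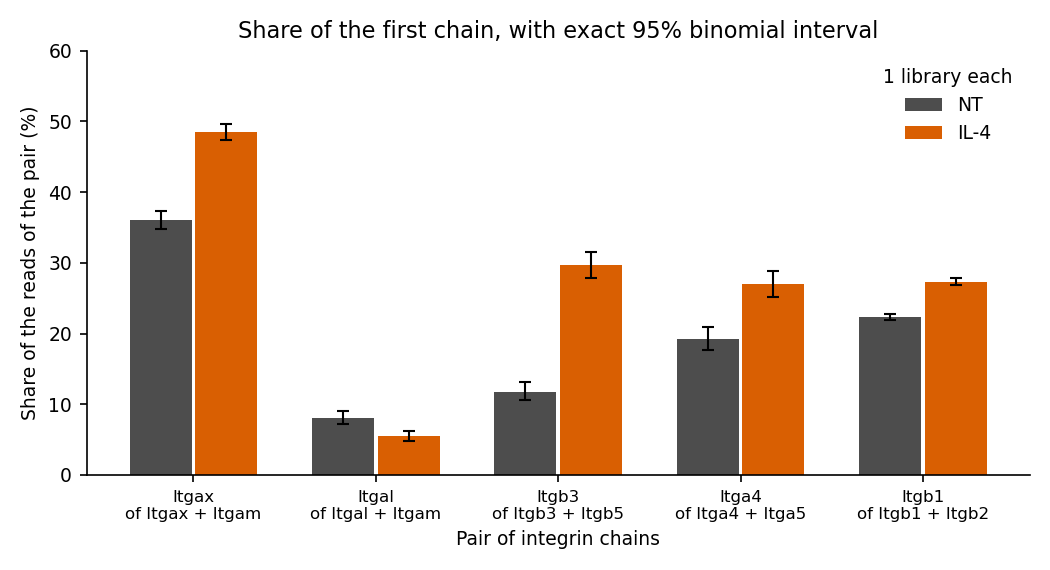
Share of the reads of a pair of integrin chains (vertical axis, percent) taken by the chain named first, in NT (grey) and IL-4 (orange), with exact 95% binomial intervals. The Itgb3 share of Itgb3 and Itgb5 is 11.8% in NT and 29.7% in IL-4, and the Itgax share of Itgax and Itgam 36.1% and 48.5%.

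Of the beta1 family, Itgb1, the chain shared by the receptors for fibronectin, collagen and laminin, had 7411 counts in NT and 9570 in IL-4 (158.6 and 200.8 FPKM). The log2 ratio was 0.34 [0.30, 0.39], and Itgb1 took 14.4% of the beta chain FPKM in NT and 18.3% in IL-4. Itga5, the alpha chain of the classical fibronectin receptor, had 1809 and 1711 counts (36.6 and 33.9 FPKM) and a ratio of −0.11 [−0.20, −0.01]. It was the most abundant of the alpha chains that pair with beta1 on the FPKM scale in both libraries.

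Itga4, at chr2:79255426-79333114, encodes the alpha4 chain, which binds VCAM-1 with beta1 and MAdCAM-1 with beta7. It had 432 counts in NT and 632 in IL-4 (3.93 and 5.63 FPKM) and a ratio of 0.52 [0.34, 0.70], so that it was not called on this scale. The Itga4 transcript of 9833 bases is the longest of the members, and less the median ratio of genes of like length its ratio was 1.03 [0.85, 1.21] and was called higher. Its exons overlap those of Cerkl on the other strand over 905 bases, but Cerkl had only 8 and 14 counts. Itgb7, the leukocyte partner of alpha4 and alphaE, had 2009 and 1614 counts (67.2 and 53.0 FPKM) and a ratio of −0.34 [−0.44, −0.25], while Itgae, which encodes alphaE, had 3 and 1. Itga9, a relative of alpha4, had 66 and 54 counts and a ratio of −0.31 [−0.86, 0.22].

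The laminin receptor Itga6 had 324 counts in NT and 203 in IL-4 (4.82 and 2.96 FPKM). Its ratio of −0.70 [−0.96, −0.44] was the lowest of the members with at least 50 counts and stood just inside the limit, as the tetraspanin Tspan14 did on the other side at 0.68. Less the median ratio of genes of like length, the Itga6 ratio was −0.43 [−0.69, −0.17] and that of Tspan14 0.59. On that scale Itga6 was not the lowest, since Tspan13 and Cd82 were both at −0.54. The other laminin-binding alpha chains had few reads, with Itga3 at 28 and 18 counts and Itga7 at 4 and 7. The beta chain Itgb4 had 2 and 3. The collagen-binding chains Itga1, Itga2, Itga10 and Itga11 summed to 26 counts in NT and 22 in IL-4. Itga10 was called lower on 14 and 4 counts, with a ratio of −1.72 [−3.90, −0.16]. Beside these stand the mesothelial and fibroblast markers given above, of which Col1a1 had 723 and 573 counts and Pdgfra 286 and 187, and their part in the counts of these chains was not tested. Itga2 and Itga8 were listed in NT only, at 1 and 2 counts, which is at or below the floor, so no fold is given.

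**Figure D3:**
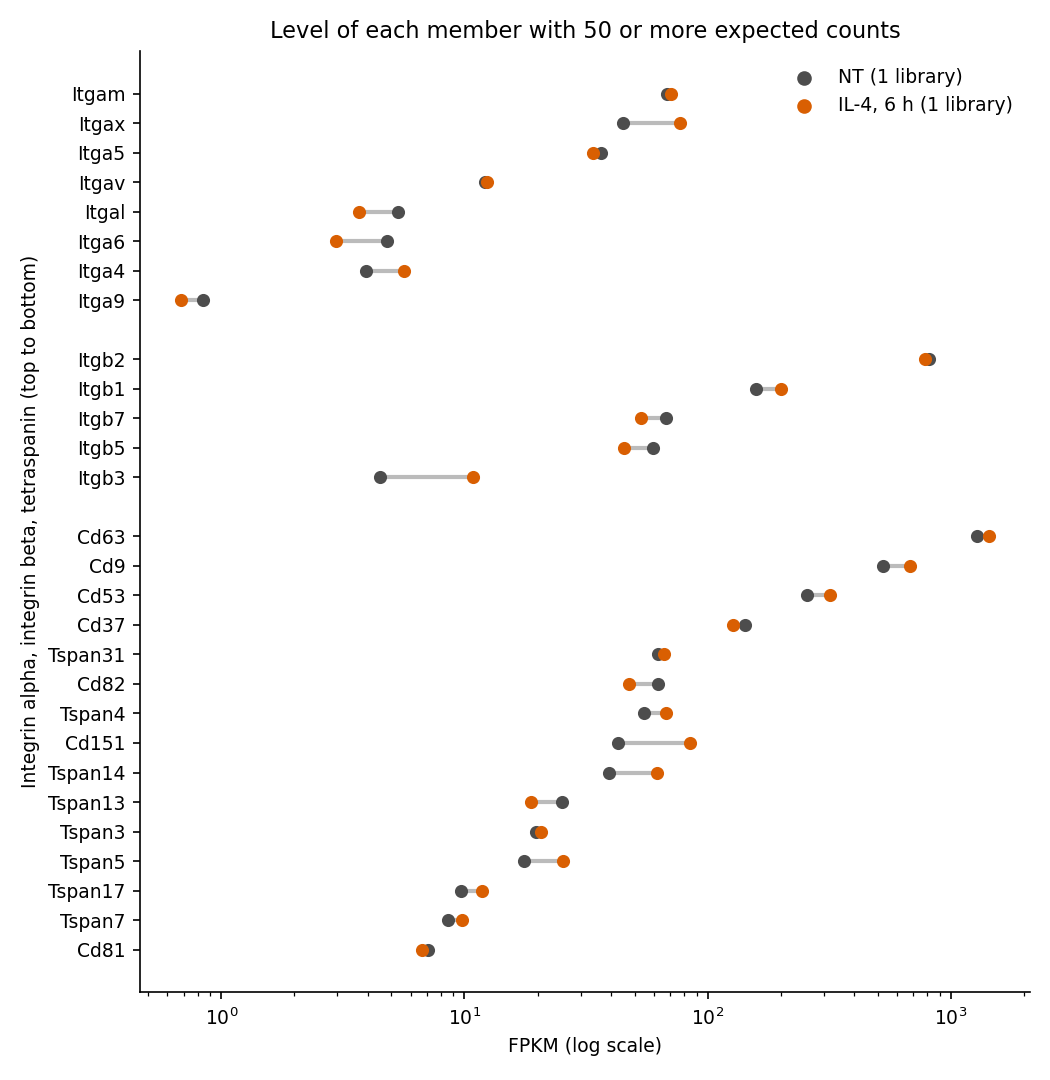
Level in FPKM (horizontal log axis) of the members with 50 or more expected counts in either library, in NT (grey) and IL-4 (orange), 1 library each. Cd63, at 1280 and 1438, and Itgb2, at 811 and 786, stand above the others, and the widest gaps between libraries are those of Itgb3 and Cd151.

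Tetraspanins were the most abundant of the members on the FPKM scale, with a sum of 2557 in NT and 2989 in IL-4. Cd63, a tetraspanin of late endosomes, lysosomes and exosomes, took 48.1% of that sum in IL-4, at 1280 and 1438 FPKM, and Cd9, which organizes integrins and membrane fusion at the cell surface, took 20.5% and 22.8%. Cd63 had 12677 and 14531 counts and a ratio of 0.17 [0.13, 0.20]. Cd9 had 7492 and 9902 counts and a ratio of 0.37 [0.33, 0.42]. The leukocyte tetraspanin Cd53 had 7982 and 10116 counts (257 and 319 FPKM) and a ratio of 0.31 [0.27, 0.36]. All 3 had more reads in IL-4 than counting error allows, and none was called.

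The largest rise among tetraspanins with at least 50 counts was that of Cd151. This tetraspanin binds the laminin receptors of the beta1 family directly and is at chr7:141467362-141471481. It rose from 860 to 1732 expected counts (42.9 to 84.7 FPKM), a 1.97-fold difference with a log2 ratio of 0.98 [0.86, 1.10]. The laminin-binding alpha chains with which it is best known to associate had few reads or a lower level in IL-4, Itga3 and Itga6 having the values given above.

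Of the other tetraspanins with CD names, 3 had ratios above 0, as given for Cd63, Cd9 and Cd53, and 3 had ratios below 0. Cd82, which restrains integrin signalling and cell migration, had 1259 and 970 counts (62.6 and 47.4 FPKM) and a ratio of −0.40 [−0.53, −0.28]. Cd37, a leukocyte tetraspanin, had 1905 and 1720 counts (143 and 127 FPKM) and a ratio of −0.18 [−0.27, −0.08]. Cd81, the close relative of Cd9, was scarce at 119 and 115 counts (7.07 and 6.70 FPKM), with a ratio of −0.08 [−0.46, 0.30].

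The TspanC8 group summed to 66.5 FPKM in NT and 99.4 in IL-4. Tspan14 had 1105 and 1800 counts (39.1 and 61.8 FPKM) and a ratio of 0.68 [0.57, 0.79]. Tspan5 had 618 and 911 counts (17.6 and 25.4 FPKM) and a ratio of 0.53 [0.38, 0.68]. Both were above counting error, and neither reached the limit of 0.75. Tspan17 had 167 and 207 counts and a ratio of 0.28 [−0.02, 0.58], and Tspan10 and Tspan15 had at most 4 counts in a library. Tspan33 was not listed in NT and had 4 counts in IL-4, which against the floor of 3 counts in NT is at least 1.31-fold higher by the counts as they stand. Its counting interval included 0, with a lower bound of −0.63 on the log2 scale. Adam10, the protease that these tetraspanins carry, had 2114 and 2720 counts and a ratio of 0.34 [0.25, 0.42].

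Of the other tetraspanins, Tspan4, known from migrasomes, had 813 and 1024 counts with a ratio of 0.30 [0.17, 0.44], and Tspan13 had 532 and 406 with a ratio of −0.42 [−0.61, −0.23]. Less the median ratio of genes of like length, that of Tspan4 was 0.11 [−0.02, 0.25], an interval that included 0. That of Tspan13 was −0.54 [−0.73, −0.35]. Tspan31 (1062 and 1143 counts), Tspan3 (377 and 403) and Tspan7 (168 and 196) had intervals that included 0. The exons of Tspan31 overlap those of Cdk4 on the other strand over 641 bases and those of Tspan4 overlap Chid1 over 292. Cdk4 had 1868 and 2031 counts and Chid1 had 328 and 411. Reads within such a shared stretch could not be given to either gene with certainty here, because the counting was not stated to use strand. Tspan18 was called lower on 19 and 8 counts, with a ratio of −1.23 [−2.68, −0.02], an interval that only just missed 0.

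In all, 20 of the 48 members had fewer than 50 counts in both libraries (0 to 38), and 3 of the 6 calls, those of Itgb8, Itga10 and Tspan18, were among them. They comprised 9 alpha chains, 2 beta chains and 9 tetraspanins, and the members of this kind not given above were Tspan2, Tspan6, Tspan8, Tspan9 and Tspan32. Tspan32, at 29 and 38 counts, had the highest level of them, 2.14 FPKM in IL-4.

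Across the genes of these libraries the ratio moved with transcript length, and longer transcripts had lower ratios (Spearman's rho −0.45 over the 8463 genes with at least 200 reads, which share both libraries). The alpha chains are long, with a median of 4937 bases, and the tetraspanins short, with a median of 1806. The median ratio of the genes of like length was accordingly −0.18 for the alpha chains and 0.13 for the tetraspanins. With it subtracted, the median log2 ratio went from −0.31 to −0.00 for the alpha chains, from 0.34 to 0.43 for the beta chains and from 0.24 to 0.09 for the tetraspanins. The medians of alpha chains and tetraspanins thus lay closer together on the second scale than on the first. These medians include members with few reads. Among members with at least 50 counts, the medians less the trend were 0.15 for 8 alpha chains, −0.09 for 5 beta chains and 0.07 for 15 tetraspanins. The beta chain median was then below 0 and the alpha chain median above that of the tetraspanins.

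The 4 members called higher kept their calls with the length trend subtracted, at 0.87 for Itgax, 1.60 for Itgb3, 2.44 for Itgb8 and 0.86 for Cd151, and Itga4 was added. These 5 of 48 stand beside 4.05% of all genes. Itga10 and Tspan18 were no longer called, which left 0 members called lower beside 4.87% of all genes. Cd63 went from 0.17 to −0.04 and Itgam from 0.05 to 0.23. The alpha chain median of −0.31 also includes Itga2 and Itga8, and without them it was −0.11 over 15 chains.

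**Figure D4:**
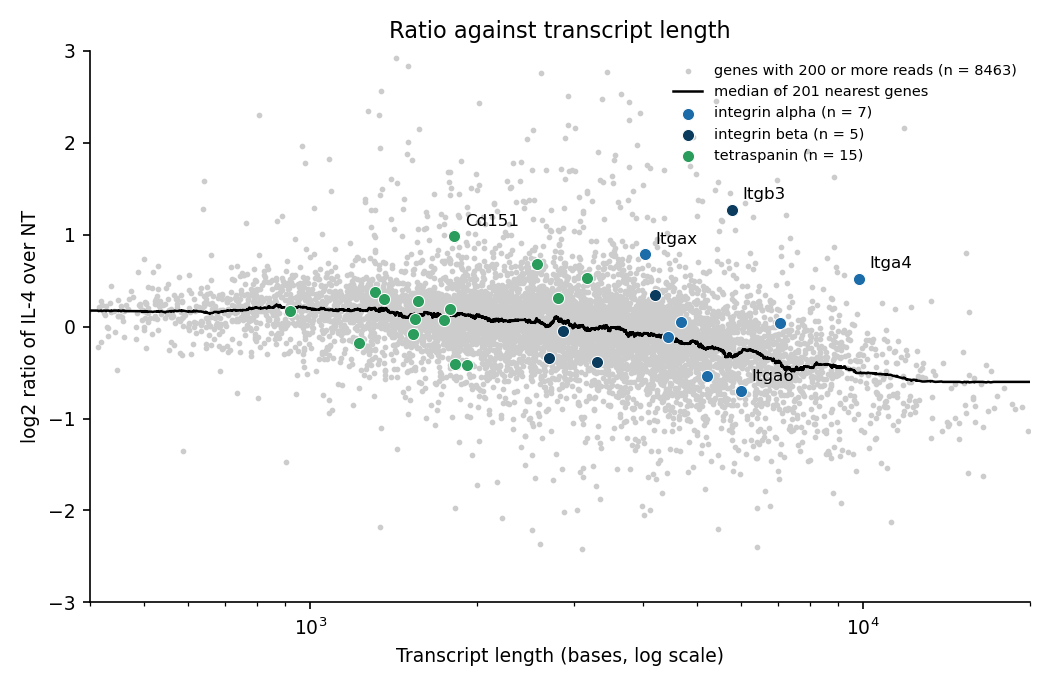
Log2 ratio, IL-4 over NT, against transcript length (log axis) for 8463 genes with at least 200 reads (grey), with the running median of the genes nearest in length (line) and the 27 members among them (coloured). The axes leave out 44 of the genes, and Itgb3, Itgax, Cd151 and Itga4 sit above the line while Itga6 sits below it.

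Genes that act with integrins and tetraspanins were taken from 3 lists of known components. The lists were drawn up with earlier results of these data known, so their called shares are description and test nothing. Of 43 listed genes of integrin activation and the adhesion complex, 3 were called higher (6.98% against 4.07% of all genes) and 9 lower (20.9% against 6.27%), with a median log2 ratio of −0.43. With the length trend subtracted 2 were higher (beside 4.05% of all genes) and 4 lower (beside 4.87%), and the median was −0.23. Tln1, which encodes the talin that activates integrins, fell from 11343 to 5183 counts, with a log2 ratio of −1.16. Ptk2b, the adhesion kinase Pyk2, fell from 2732 to 1172 (−1.25), Fyb, an adaptor of leukocyte integrin activation, from 1950 to 897 (−1.15), and Tns1, a tensin that links integrins to actin, from 4371 to 2051 (−1.12). Tln1 and Tns1 were no longer called with the length trend subtracted, at −0.75 (just inside the limit) and −0.62. Dab2, an endocytic adaptor for integrins, rose from 375 to 3985 counts (3.38), and Cytip, which binds a regulator of beta2 adhesion, from 97.9 to 275 (1.46).

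Of 33 listed integrin ligands, 4 were called higher (12.1% against 4.07% of all genes) and 4 lower (12.1% against 6.27%), with a median log2 ratio of −0.35. With the length trend subtracted these were 4 and 2 (beside 4.05% and 4.87% of all genes), and the median was −0.21. The fibronectin gene Fn1, whose product binds alpha5, alpha4 and alphav integrins, rose from 5006 to 19129 counts, with a log2 ratio of 1.91. Cdh1, which encodes E-cadherin, the ligand of alphaE, rose from 1 count to 52 (5.10), a ratio that the single count in NT fixes poorly (lower bound 3.13). Lrrc32, whose product GARP presents latent TGF-beta to alphav integrins, rose from 83 to 198 (1.22). Tgfbi, a matrix ligand, fell from 92 to 31 (−1.58), and the basement membrane genes Col4a1 and Lamc1 fell from 56 to 32 (−0.83) and from 887 to 531 (−0.77). These last 2 lost their calls with the length trend subtracted, at −0.50 and −0.31.

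Of 28 tetraspanin partners, 6 were called higher (21.4% against 4.07% of all genes) and 5 lower (17.9% against 6.27%), with a median log2 ratio of −0.11. With the length trend subtracted these were 6 and 3 (beside 4.05% and 4.87% of all genes), and the median was −0.10. Hbegf, the growth factor precursor that Cd9 binds, rose from 11 to 175 counts (3.90), Clec7a, the beta-glucan receptor Dectin-1 that Cd37 binds, from 5452 to 14074 (1.34), and Cd47, the ligand of SIRPalpha and a partner of beta3 integrin, from 697 to 1444 (1.02). Ptgfrn, a direct partner of Cd9 and Cd81, fell from 554 to 240 (−1.23). Notch2, a receptor cleaved by ADAM10, fell from 2005 to 878 (−1.22), and Cd14, the LPS co-receptor, from 1219 to 591 (−1.07). Notch2 was no longer called with the length trend subtracted, at −0.71. On every list, genes were called in both directions.

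**Figure D5:**
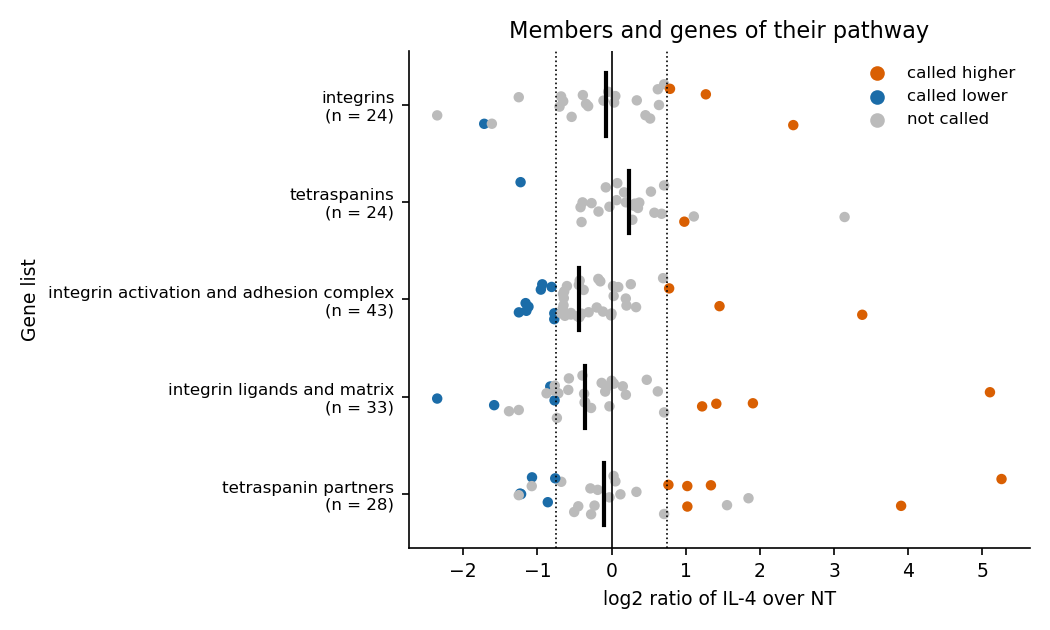
Log2 ratio, IL-4 over NT (horizontal axis), of each integrin, each tetraspanin and each gene on the 3 lists of components they act with, coloured where called higher (orange) or lower (blue), with bars at the medians and dotted lines at 0.75 in size. Vertical scatter within a list is only for legibility, and the medians of the lists are −0.43, −0.35 and −0.11.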

How the data were processed

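RNA was sequenced on an Illumina HiSeq from 1 NT and 1 IL-4 sample, grouped by title. Per the submitters' processing notes, the authors used Bowtie, RSEM and GRCm38/mm10 (tool versions not given in the sources used here). The deposited expected counts are RSEM estimates, unscaled for depth, which were rounded to whole numbers here. The deposited FPKM values are scaled by the authors for length and depth, and served for levels between genes. A gene absent from a table was set to 0. Symbols and coordinates came from RefSeq (GRCm38.p6), which matched 15587 of 15623 gene numbers. No ratio was computed for 30 genes whose rounded counts were 0 throughout.

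For each gene, the Clopper-Pearson bounds of the proportion of its reads found in IL-4 were converted to log2 ratios. The length trend was a running median of ratios over the other genes nearest in length, by the deposited length column, using genes with 200 or more reads. The procedure was tested on simulated data. Members and lists were chosen with earlier results of these data known, and so were the pairs of chains. Named were the called members, the family members best known in macrophages, the 5 of highest FPKM, those listed in 1 library, and up to 6 called genes of each list with at least 50 counts, by size of ratio. Other members complete the account. Alternatives were scaling by median of ratios with DESeq2 1.42.0, by TMM with edgeR 4.0.16 or by totals that omit the top 100 genes, FPKM with 0.1 or 1 added, the length trend, a limit of 1 or of 1.5-fold, and a filter at 50 counts. Scripts ran in R 4.3.3 and in Python 3.11.15 with pandas 2.3.3, scipy 1.17.1, numpy 2.4.6 and matplotlib 3.10.9. Promoter sequences are not reported here.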

Additional observations from a re-analysis of the deposited data

How the results depend on the processing

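The number of members called lower, 2 as reported, was 1 with TMM scaling and 1 with median-of-ratios scaling, both of which lost Tspan18. It was 0 with 1 added to FPKM, with the length trend subtracted and among genes with at least 50 counts, which leaves out both. The number called higher, 4 as reported, was 2 at a limit of 1 on the log2 scale, which Itgax and Cd151 miss. It was 3, without Itgb8, both with 1 added to FPKM and among genes with at least 50 counts. At a limit of 1.5-fold, and with the length trend subtracted, it was 5. Over all genes, 1 added to FPKM gave 391 called higher and 399 called lower (635 and 978 as reported). The limit of 1 gave 473 and 581, and the limit of 1.5-fold 858 and 1378. TMM and median-of-ratios scaling gave 881 and 908 called lower. Among the 9926 genes with at least 50 counts, 429 (4.32%) were called higher and 677 (6.82%) lower. The values of Itgb8, Itga10 and Tspan18 with 1 added to FPKM were 0.50, −0.22 and −0.28, since this shrinks the ratio of genes below 1 FPKM. With a limit of 1.5-fold, Itga6 and Tspan14 would be called. Of 213 comparisons of a named member with an alternative, 185 kept the direction and the call, 16 moved beyond the counting interval without changing the call, 9 lost the call and 3 gained it. The other limits and the filter at 50 counts used the ratio as reported, so the direction could not change there. Under the filter the call of a named member that stayed in could not change either. No called ratio changed sign. The median of the beta chains, 0.34 as reported, was −0.05 over those with at least 50 counts, which leaves out Itgb8 and Itgb4, and that of the alpha chains went from −0.31 to −0.04. Other scalings shifted all ratios by at most 0.04. No paired analysis was possible because NT and IL-4 had a single library each. Spread between animals is not in the intervals, which understate the error.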
